A study of Mus musculus with 4 samples.

Results

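Transcripts of 10 genes that encode LIF, oncostatin M, IL-6, IL-10 and chains of their receptors, together with the IL-27 receptor chain, were followed in group 3 innate lymphoid cells (ILC3s) of the mouse small intestine with and without Brg1, the ATPase of the SWI/SNF chromatin remodeling complex that Smarca4 encodes. The 10 genes (Lif, Osm, Il6, Il10, Lifr, Il6ra, Il6st, Il10ra, Il10rb and Il27ra) were picked by symbol from a table of 53379 genes, by a rule that uses no measured value, though with earlier results of these data known. Of these, 7 had a mean above 1 FPKM (fragments mapped, scaled to transcript length and to the fragments of the library) in either group and could be tested. By the stricter of the calls used below, an adjusted p under 0.05 in limma, 0 of the 7 genes were called. By the looser call, Lif was the 1 gene of the 7 that was higher without Brg1, at 2.54-fold the mean of controls. Its genome neighbour Osm was the 1 that was lower, at 42.0% of the control mean. By the same looser call, 3.85% of all genes tested were higher and 4.37% were lower. Transcripts of the ligand-specific receptor chains Lifr, Il6ra and Il10ra had means below 1 FPKM in both groups. That of Il27ra, also a ligand-specific chain, was at 47.71 to 57.56 FPKM.

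The cells came from mixed bone marrow chimeras. Marrow of Thy1.2 Rag1-/- Smarca4 f/f donors (Brg1-sufficient controls, 2 libraries) and of Thy1.1/Thy1.2 Rag1-/- Smarca4 f/f donors with Smarca4 deleted in ILC3s (Brg1-deficient, 2 libraries) was given together to sublethally irradiated Rag2-/- Il2rg-/- hosts, and lamina propria cells of the small intestine were taken 6 to 7 weeks later. All donors lacked Rag1 and thus T and B cells, and all carried the floxed Smarca4 alleles. The sort took cells with high Thy1.2 and low CD45, without Thy1.1 for the Brg1-sufficient and with Thy1.1 for the Brg1-deficient group, so each genotype had its own Thy1 type and the effects of Brg1 and of the marked chromosome segment cannot be told apart. The gate used surface markers and not Brg1 itself. The ages of the animals are not given in the sources used here. The libraries are described as biological duplicates, and whether each came from 1 host or from pooled hosts is not stated.

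IL-6, LIF, oncostatin M and IL-27 belong to a cytokine family whose receptors share the signal transducer gp130, which Il6st encodes. Each cytokine is recognised with a further chain: the IL-6 receptor chain (Il6ra), the LIF receptor chain (Lifr, also used by mouse oncostatin M to some degree) or Il27ra. IL-10 uses a separate receptor built of a ligand-binding chain (Il10ra), found mainly on leukocytes, and a broadly expressed chain (Il10rb) that receptors for IL-22 and interferon lambda also use. Both families signal through Janus kinases and above all STAT3, and SOCS3 limits signals from gp130. In the gut, IL-10 restrains inflammation, and IL-22 from ILC3s acts on epithelial cells through STAT3.

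The window around the annotated start of Lif is shown because Lif had the largest difference of the 10 genes. It is the RefSeq promoter entry on GRCm38.p6, chr11:4257318-4257617 on the plus strand, with 250 bases before and 50 after the start, and capitals mark the matches to the motifs searched.

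Lif promoter: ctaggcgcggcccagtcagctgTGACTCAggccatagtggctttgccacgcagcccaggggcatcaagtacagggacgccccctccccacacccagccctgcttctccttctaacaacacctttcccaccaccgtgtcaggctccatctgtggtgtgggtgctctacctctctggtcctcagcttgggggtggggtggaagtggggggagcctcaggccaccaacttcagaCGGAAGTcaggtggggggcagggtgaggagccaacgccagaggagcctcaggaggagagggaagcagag

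The window has a GC content of 63.7%. It was searched on both strands for the AP-1 motif TGANTCA, the STAT motif TTCNNNGAA, the ETS motif CCGGAAGT with its shorter form CGGAAGT that lies within it, and the TATA box letters TATAAA. An AP-1 match lay at bases 23 to 29 of the window, positions -228 to -222 from the start, and 7.81% of 32851 RefSeq promoter windows of the same length hold one. The short ETS form matched at bases 232 to 238, positions -19 to -13, and 6.42% of windows hold it. No match was found to the full ETS, STAT or TATA letters, which 3.89%, 8.30% and 13.6% of windows hold. These are matches of letters only. RefSeq promoter entries matched 5 of the 10 genes (Lif, Lifr, Il6, Il6ra and Il6st).

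The deposited values fix how the groups can be compared. Depth per library is unknown because the values are FPKM, and the sorted values were nearly equal between libraries, with 99.3% of 13693 ranks within 1% of each other, so a difference in total RNA between the groups cannot be seen. Between 30046 and 36929 genes were above 0 in a library, and libraries correlated at 0.930 to 0.966 across genes on the log2(FPKM + 1) scale. Smarca4 itself was at 17.07 and 16.73 FPKM in controls, against 9.98 and 9.03 FPKM in the Brg1-deficient group. Differences were tested with limma on log2(FPKM + 1) over the 14739 genes with a mean above 1 FPKM in either group, and p was adjusted over all of them by Benjamini-Hochberg. Differences are Brg1-deficient minus Brg1-sufficient, and the log2(FPKM + 1) scale understates the change of low genes. For 1 gene in 2 and 2 libraries, the smallest two-sided p of an exact permutation test is 0.33. The p-values of limma borrow their estimate of spread from all genes, and they measure the spread between these libraries, which may be technical. In bulk RNA, fewer cells that express a gene and less RNA per cell cannot be told apart.

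By the stricter call, an adjusted p under 0.05, limma called 0 of the 7 genes tested, beside 0.305% of all genes tested. At an unadjusted p under 0.05, 2 of the 7 passed, beside 12.6% of all genes. For its changed genes the study used the adjusted threshold, an FDR under 0.05, with a mean above 1 FPKM. A looser call follows the criteria it set for the genes that entered its gene ontology analysis, namely p under 0.05, adjusted p under 0.4, a mean above 5 FPKM in either group and a log2 ratio of the means beyond 0.5, and is called the list criteria here. By these, Lif was higher, as were 3.85% of all genes tested, and Osm was lower, as were 4.37%. In 4 of the 7 genes (Lif, Osm, Il6st and Il27ra) the groups did not overlap, beside 44.6% of all genes tested.

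**Figure D1:**
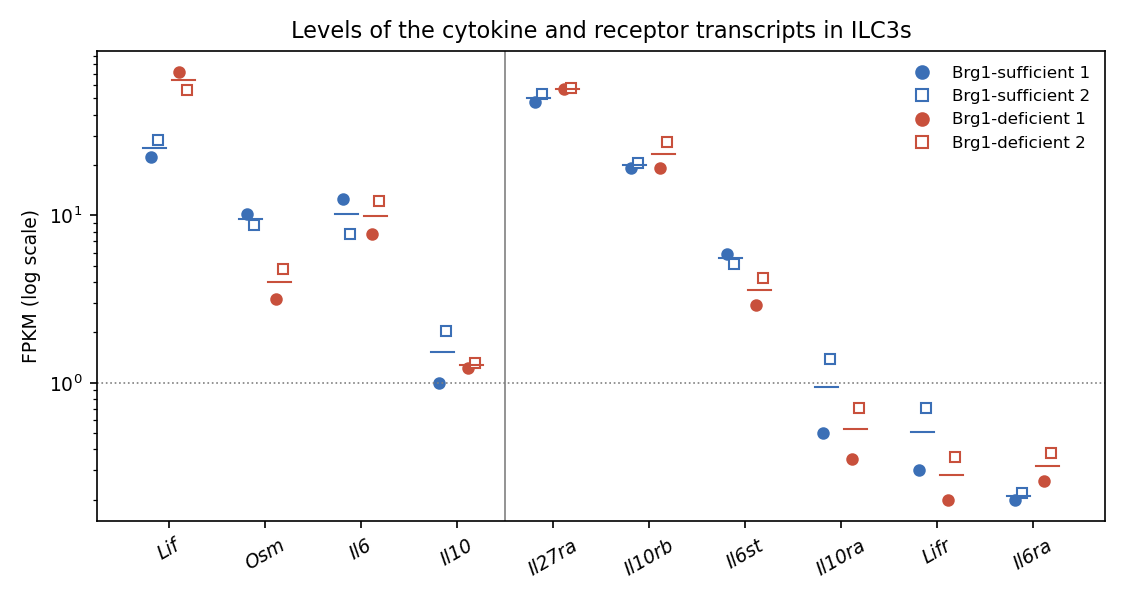
FPKM (log axis) of the 4 cytokine genes (left) and 6 receptor genes (right), 1 point per library, filled circles for replicate 1 and open squares for replicate 2, with a bar at each group mean and a dotted line at 1 FPKM. Lif lies between 56.26 and 71.85 FPKM in the Brg1-deficient and between 22.24 and 28.2 FPKM in the Brg1-sufficient libraries, while Osm is lower in both Brg1-deficient libraries and Il6 and Il10 overlap.

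Lif encodes leukemia inhibitory factor, a secreted cytokine of the gp130 family. Its gene (ENSMUSG00000034394) lies on chromosome 11 of GRCm38, chr11:4257557-4272514, plus strand. It was at 22.24 and 28.2 FPKM in controls, against 71.85 and 56.26 FPKM without Brg1. Both Brg1-deficient libraries stood above both controls, and the gap between the groups was wider than the gap between replicates in either. Among all genes in the table, Lif moved from the 92.3 and 93.6 percentile in controls to the 97.3 and 96.6 percentile. The means were 25.2 ± 4.21 FPKM (SD, n = 2) and 64.1 ± 11.0 FPKM (SD, n = 2), a difference larger than the spread between replicates. In limma, the log2 fold change was 1.31 (SE 0.199, 95% interval 0.81 to 1.81), with an unadjusted p of 0.000910 and an adjusted p of 0.0917. This met the list criteria and missed the stricter call. Over the other fits with all 4 libraries the adjusted p from limma ran from 0.0141 to 0.221, and it was 0.0490 when only genes with a mean above 5 FPKM entered. Without Brg1-deficient library 1 the log2 fold change was 1.14, and without Brg1-deficient library 2 it was 1.48. In both of these limma fits, at adjusted p of 0.521 and 0.432, the list criteria were no longer met.

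Osm encodes oncostatin M, a gp130 cytokine made by hematopoietic cells, including activated T cells, neutrophils and macrophages. Its gene (ENSMUSG00000058755) lies at chr11:4236420-4241026 on the plus strand, and 16.5 kb separate its end from the start of Lif. Osm was at 10.22 and 8.78 FPKM in controls, against 3.18 and 4.8 FPKM without Brg1. The groups did not overlap, in the direction opposite to that of Lif. Means of 9.50 ± 1.02 and 3.99 ± 1.15 FPKM (SD, n = 2 each) differed by more than the spread between replicates. The limma fit gave a log2 fold change of -1.09 (SE 0.242, 95% interval -1.70 to -0.48), an unadjusted p of 0.00530 and an adjusted p of 0.167, which met the list criteria. With any 1 library left out the log2 fold change lay between -1.33 and -0.85, but the list criteria were met in 0 of these 4 fits and not in the fit without a filter on low FPKM, where the adjusted p from limma was 0.410. The adjusted p ran from 0.0685 to 0.410 over the other fits with all libraries.

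Marker transcripts of other cells and of ILC subsets are given beside these results. For the counts below, 3.85% of all genes tested were higher and 4.37% lower by the list criteria. Summed FPKM of 11 macrophage and dendritic cell markers was 196 and 371 in the Brg1-sufficient and 125 and 309 in the Brg1-deficient libraries, with Lyz2, C1qa and C1qb higher in replicate 2 of each group, and none of the 11 was at 0 in all libraries. While this sum overlapped between the groups, 8 of the 9 markers tested had log2 fold changes below 0 and 2 were lower by the list criteria, Adgre1 (5.76 and 6.0 against 2.09 and 3.67 FPKM) and Zbtb46 (40.44 and 31.11 against 12.22 and 7.51 FPKM). The dendritic cell markers Flt3 and Itgax were at 0.17 to 0.64 and 0.44 to 1.01 FPKM, and which cells carried Zbtb46 was not tested. Sums over 10 ILC2 markers were 438 and 246 against 124 and 155, with 6 of the 9 tested lower and 1 higher by the list criteria. For 10 T cell markers they were 389 and 236 against 95.2 and 92.9, with 4 of 7 tested lower. Donors and hosts lacked T and B cells by genotype, so the T and B cell lists cannot be read as counts of such cells. Of the T cell list, Trbc1 was at 110.42 and 62.51 against 10.62 and 10.25 FPKM. Trbc2 was at 185.57 and 146.1 against 74.74 and 56.75 FPKM, while Cd5 was at 0.19 to 0.3 FPKM. The 7 neutrophil markers summed to at most 5.36 FPKM in any library, 5.36 and 5.10 against 3.62 and 3.92, and Elane was at 0 throughout. The 5 mast cell markers summed to 11.0 and 9.08 against 6.71 and 7.17. The ILC2, T cell, neutrophil and mast cell sums, Adgre1 and Zbtb46 were thus lower in both Brg1-deficient libraries, as Osm was. The part of ILC2s, neutrophils, mast cells, macrophages or dendritic cells in the Osm result was not tested. The 7 B cell markers summed to 32.8 and 25.8 in controls and to 36.05 and 49.5 without Brg1. Of them, Ighm was higher by the list criteria (22.88 and 14.96 against 33.16 and 47.76 FPKM), Cd79b was lower at an adjusted p of 0.0386 in limma (8.68 and 10.02 against 1.03 and 0.99 FPKM), and the other 5 were below 1 FPKM in every library. The 10 ILC1 and NK cell markers summed to 287 and 470 against 654 and 466, and of 9 tested, 3 were lower and 2 higher by the list criteria. Ncr1, which encodes NKp46 (31.32 and 35.54 against 5.37 and 6.02 FPKM), and Ifng (22.75 and 37.28 against 3.42 and 3.22 FPKM) were lower at adjusted p of 0.0330 and 0.0386 in limma, and Tbx21, which encodes T-bet, was lower by the list criteria, while Gzma (50.77 and 102.83 against 397.13 and 217.71 FPKM) and Klrk1 were higher. The study found a smaller share of NKp46+ ILC3s, a subset that expresses T-bet, among Brg1-deficient ILC3s of the small intestine. Ncr1 and Tbx21 thus do not mark other cells alone. The part of cells with the ILC1 and NK cell markers, that subset included, in the Lif and Osm results was not tested. The groups overlapped in the sums of epithelial and of stromal and endothelial markers. All 13 ILC3 markers could be tested, and Ccr6 was lower by the list criteria.

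Il6 encodes interleukin 6, the founding cytokine of the gp130 family. The gene, at chr5:30013114-30019981 on the plus strand, was at 12.62 and 7.77 FPKM in controls, against 7.73 and 12.18 FPKM without Brg1. Each group held 1 higher and 1 lower library, and the ranges overlapped almost fully. The log2 fold change was -0.03 (SE 0.313, adjusted p = 0.981 in limma), and its 95% interval of -0.81 to 0.76 leaves room for a change in either direction.

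Il10 encodes interleukin 10 and lies at chr1:131019845-131024974 on the plus strand. It was low in all libraries, at 1 and 2.05 FPKM in controls and at 1.23 and 1.32 FPKM without Brg1. Both Brg1-deficient values fell between the 2 control values. The difference in limma was -0.12 on the log2 scale (SE 0.352, adjusted p = 0.913, 95% interval -1.0 to 0.77).

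**Figure D2:**
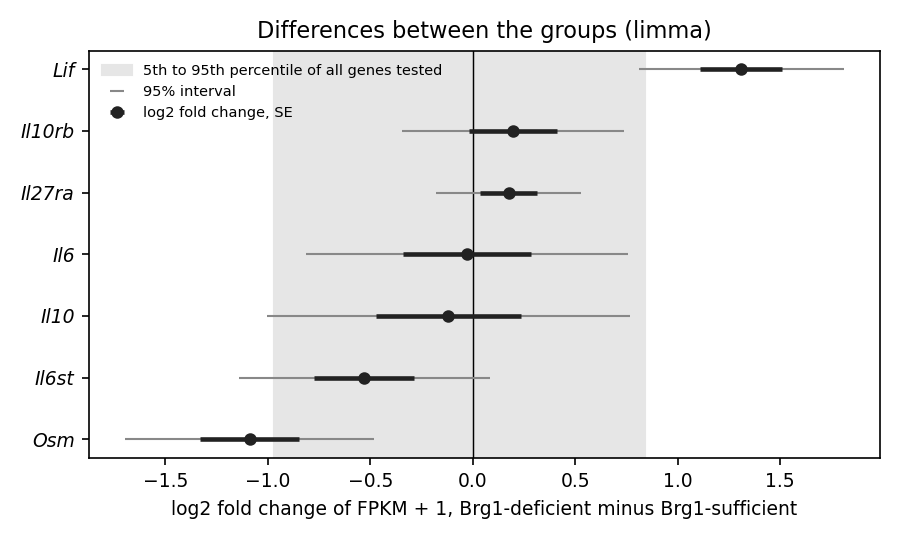
Log2 fold change of FPKM + 1 in limma (x axis, Brg1-deficient minus Brg1-sufficient, 2 libraries each) for the 7 genes that could be tested, with thick bars for the SE, thin bars for the 95% interval, and a grey band from the 5th to the 95th percentile of all 14739 genes tested (-0.97 to 0.84). Lif at 1.31 and Osm at -1.09 lie outside the band, and the intervals of the other 5 genes cross 0.

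Il6st encodes gp130, the chain that the receptors for IL-6, LIF, oncostatin M and IL-27 share. It lies at chr13:112464070-112510086 on the plus strand. Il6st was at 5.92 and 5.16 FPKM in controls, against 2.92 and 4.22 FPKM without Brg1. Both Brg1-deficient libraries were below both controls, and the mean was 64.4% of that of controls (3.57 ± 0.919 against 5.54 ± 0.537 FPKM, SD, n = 2 each). This did not pass the test, with a log2 fold change of -0.53 (SE 0.243, unadjusted p = 0.0777, adjusted p = 0.461 in limma) and a 95% interval of -1.14 to 0.083.

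Il27ra encodes the ligand-specific chain of the IL-27 receptor, which pairs with gp130. The gene, at chr8:84030294-84042589 on the minus strand, had the highest level of the 6 receptor genes in every library. It was at 47.71 and 53.37 FPKM in controls and at 56.61 and 57.56 FPKM without Brg1. The groups did not overlap, though the means of 50.5 ± 4.0 and 57.1 ± 0.672 FPKM (SD, n = 2 each) were close. The log2 fold change was 0.17 (SE 0.141, 95% interval -0.18 to 0.53, adjusted p = 0.642 in limma).

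Il10rb encodes the second chain of the IL-10 receptor, which also serves the IL-22 receptor. It lies at chr16:91406164-91425834 on the plus strand and was at 19.29 and 20.59 FPKM in controls, against 19.1 and 27.64 FPKM without Brg1. Brg1-deficient library 2 alone stood above the rest. Its log2 fold change of 0.20 (SE 0.215, 95% interval -0.34 to 0.74, adjusted p = 0.738 in limma) became -0.06 without that library. The annotated gene Gm21970 overlaps Il10rb on the same strand, and its 1.94 to 5.38 FPKM may share reads with it.

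The ligand-binding chains Il10ra, Lifr and Il6ra did not reach the level for a test. Il10ra (chr9:45253837-45269149, minus strand) was at 0.5 and 1.39 FPKM in controls and at 0.35 and 0.71 FPKM without Brg1. Lifr, which encodes the LIF receptor chain (chr15:7090614-7197489, plus strand), was at 0.3 and 0.71 FPKM against 0.2 and 0.36 FPKM. In both genes replicate 2 was the higher library of each group, as it was in the sum of macrophage and dendritic cell markers, and the part of those cells in these low values was not tested. Il6ra, which encodes the IL-6 binding chain (chr3:89864059-89913196, minus strand), was at 0.2 and 0.22 FPKM in controls and at 0.26 and 0.38 FPKM without Brg1. The antisense gene Gm42809 overlaps Il6ra at 0.16 to 0.48 FPKM, and since the use of strand in counting is not stated, reads of the pair cannot be told apart.

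Since FPKM is scaled to transcript length, levels can be set in order within a group. In controls, Il27ra was above Lif, Lif above Il10rb, and Il10rb above Il6 and Osm, whose ranges overlapped. Il6st came next, then Il10, Il10ra and Lifr, each of which overlapped its neighbour, and Il6ra was lowest. Without Brg1, Lif and Il27ra overlapped at the top, and Osm came down to the level of Il6st. At the lower end, Il10ra, Il6ra and Lifr overlapped in turn. A change of order between Lif and Il27ra is a description of the 4 libraries.

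The balance between chains of 1 receptor was taken within each library. Il6st exceeded Il6ra by 29.6 and 23.5 times in the Brg1-sufficient libraries and by 11.2 and 11.1 times in the Brg1-deficient libraries. The groups were apart in this ratio, with a lower Il6st level and a higher Il6ra level contributing, and the difference was -1.24 on the log2 scale of the ratio. Il27ra exceeded Il6st by 8.06 and 10.3 times in controls and by 19.4 and 13.6 times without Brg1, so the shared chain was the less abundant transcript of that receptor in all 4 libraries. For Il6st over Lifr the ratios were 19.7 and 7.27 against 14.6 and 11.7, and for Il10rb over Il10ra they were 38.6 and 14.8 against 54.6 and 38.9. The groups overlapped in the first of these, whose difference on the log2 scale of the ratio was 0.13 and became -0.59 without control library 2 and -0.031 without Brg1-deficient library 1. In the second the nearest values of the groups, 38.6 and 38.9, were almost equal, and the difference of 0.95 became 0.26 without control library 2 and 1.64 without control library 1. These ratios were not tested, and those with Il6ra, Lifr and Il10ra rest on values near or below 1 FPKM.

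**Figure D3:**
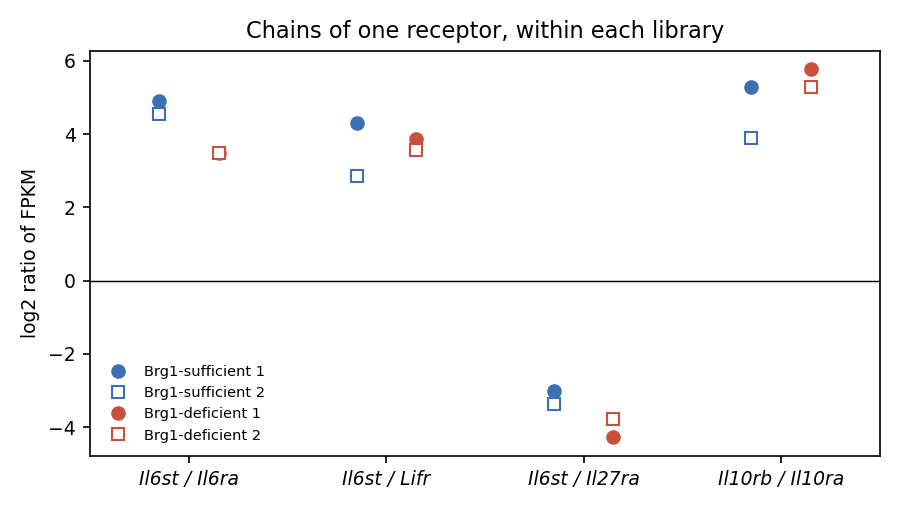
Log2 ratio of FPKM between chains of 1 receptor within each library (y axis, 0 means equal levels), for Il6st over Il6ra, Il6st over Lifr, Il6st over Il27ra and Il10rb over Il10ra. Il6st over Il6ra is 4.89 and 4.55 in Brg1-sufficient and 3.49 and 3.47 in Brg1-deficient libraries, where both points coincide, and Il6st over Il27ra is below 0 in all 4.

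Lif and Osm are neighbours in the genome, so the other genes within 100 kb of them were read as well. Of 10 annotated genes within 100 kb of Lif, 6 could be tested and 3 met the list criteria, beside 3.85% higher and 4.37% lower of all genes tested. These were Osm, already counted above, Tbc1d10a and Hormad2. Tbc1d10a, a Rab GTPase-activating protein gene on the far side of Osm, was at 18.93 and 17.14 FPKM in controls and at 11.73 and 11.1 FPKM without Brg1 (log2 fold change -0.62, SE 0.162, adjusted p = 0.226 in limma). Hormad2, a meiotic chromosome protein gene on the other side of Lif, was at 12.89 and 8.48 against 14.79 and 22.13 FPKM (log2 fold change 0.74, SE 0.284, adjusted p = 0.382 in limma). Castor1, between Tbc1d10a and Osm, encodes an arginine sensor of the mTORC1 pathway and was at 4.04 and 3.85 against 4.25 and 4.54 FPKM, a log2 fold change of 0.13 (adjusted p = 0.834). The splicing factor gene Sf3a1 and Ccdc157 had log2 fold changes of -0.05 and -0.09, and Rnf215, within 100 kb of Osm only, had 0.34, and none of these passed either call. Genes with differences in both directions thus lay side by side around Lif.

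**Figure D4:**
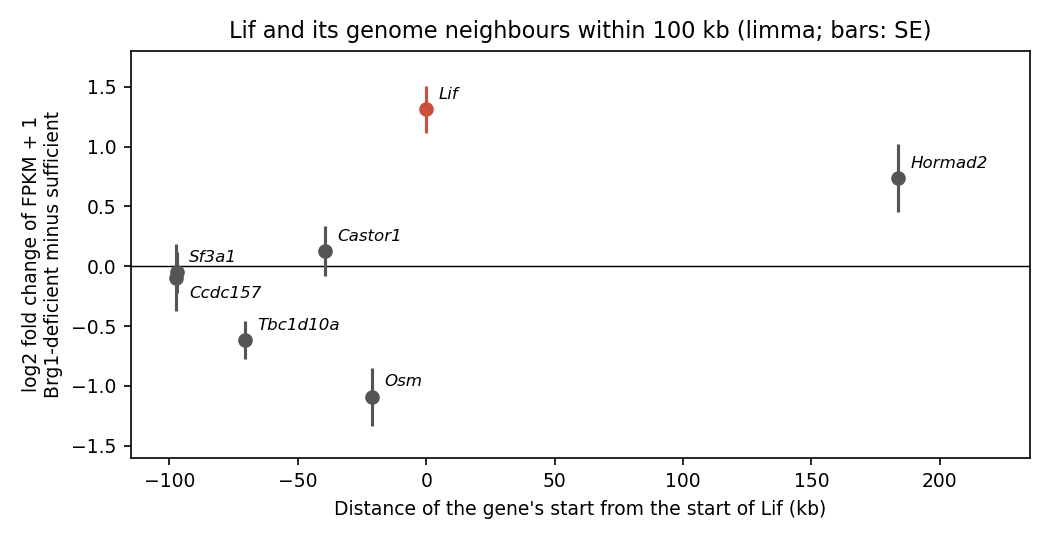
Log2 fold change of FPKM + 1 in limma (y axis, bars are the SE, 2 libraries each) against the distance of each gene's start from the start of Lif in kb (x axis), for Lif and the 6 tested genes whose bodies lie within 100 kb of it. Osm at -1.09 and Tbc1d10a at -0.62 lie on 1 side of Lif, with Castor1 at 0.13 between them, and Hormad2 at 0.74 lies on the other.

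Around Il10 and Il10rb 1 of the 7 neighbours tested met a call. Of 5 genes within 100 kb of Il10, 3 could be tested. Mapkapk2, which encodes a kinase downstream of p38, differed by 0.06 on the log2 scale (adjusted p = 0.926 in limma) and the annotated transcript Gm37084 had 0.31 (adjusted p = 0.745). The small nuclear RNA gene Gm25549 was listed at 0 and 1.32 FPKM in controls and at 6.46 and 13.77 FPKM without Brg1 and met the list criteria (adjusted p = 0.123), though the libraries were made from oligo-dT selected RNA and such short genes are measured with few reads. Of 7 genes within 100 kb of Il10rb, 4 could be tested and 0 met either call, where the limma p of each was above 0.05 without adjustment as well. Ifnar2, a type I interferon receptor chain gene whose end lies 0.575 kb before Il10rb, was at 21.75 and 24.67 against 18.04 and 18.51 FPKM (log2 fold change -0.33, adjusted p = 0.479). The other interferon receptor chain gene, Ifnar1, was at 35.18 and 23.27 against 23.81 and 19.07 FPKM (-0.41, adjusted p = 0.566). A930006K02Rik and Gm21970 had -0.29 and 0.00.

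The 5 genes whose profile over the 4 libraries was nearest to that of Lif, among genes with a mean above 5 FPKM in either group, were Meis3, Mir6395, Nmur1, Soat2 and Snora21. Likeness was the Euclidean distance between log2(FPKM + 1) values centred on their mean. Meis3, a homeobox factor gene, was at 6.88 and 8.36 against 22.97 and 17.34 FPKM (distance 0.0673, log2 fold change 1.29). Nmur1, which encodes the neuromedin U receptor, was at 8.24 and 9.88 against 25.88 and 24.04 FPKM (distance 0.195, log2 fold change 1.37, adjusted p = 0.0675 in limma). Soat2, which encodes a cholesterol-esterifying enzyme, lay at a distance of 0.205, and the short RNA genes Mir6395 and Snora21 at 0.0966 and 0.232. Over 4 libraries, 2 of each group, this measure mainly finds genes with a like difference between the groups.

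The rest of the gp130 family was low. Of 14 further ligand and receptor genes, 4 could be tested and 10 were below 1 FPKM in every library. Clcf1, a ligand that signals through gp130 and Lifr, was the highest, at 6.55 and 6.82 against 3.92 and 5.23 FPKM, and the groups did not overlap (log2 fold change -0.47, SE 0.217, adjusted p = 0.460 in limma). Ebi3, a subunit of IL-27, was at 3.11 and 1.14 against 0.54 and 1.23 FPKM (-0.68, adjusted p = 0.603). Il11ra1, the IL-11 receptor chain gene, was at 2.94 and 3.08 against 4.22 and 3.94 FPKM (0.34, adjusted p = 0.594), and Cntf, a neurotrophic ligand gene, had -0.24. The oncostatin M receptor chain gene Osmr was at 0.22 to 0.46 FPKM. By the list criteria 0 of the 4 were called in either direction, with 0 at an unadjusted p under 0.05, and their median log2 fold change was -0.36 beside 0.03 over all genes tested.

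Of 11 further genes of the IL-10 family, Il22 stood far above the rest. It encodes the ILC3 cytokine that acts on epithelium and was at 8328 and 10408 FPKM in controls and at 21159 and 10408 FPKM without Brg1. Replicate 2 of both groups held the same value, since the highest ranks share values between libraries in this table, so levels of Il22 reflect its rank (log2 fold change 0.67, SE 0.363, adjusted p = 0.520 in limma). Il20ra, a chain of receptors for IL-19, IL-20 and IL-24, was at 2.19 and 1.52 against 0.71 and 0.52 FPKM (-0.81, SE 0.337, unadjusted p = 0.0570, adjusted p = 0.415). Its partner Il20rb had 0.49 (adjusted p = 0.640). The IL-22 receptor chain gene Il22ra1, known from epithelial cells, was at 0 in both controls and at 0.15 and 0.01 FPKM without Brg1. In all, 3 of the 11 could be tested, 0 were called by limma by either call or at an unadjusted p under 0.05, and their median was 0.49.

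Downstream of both families, 15 of 16 JAK-STAT genes could be tested. Stat3, the main transcription factor of both pathways, was at 191 and 230 against 210 and 162 FPKM (log2 fold change -0.18, adjusted p = 0.714 in limma). Socs3, the feedback inhibitor that binds gp130, was at 127 and 202 against 130 and 134 FPKM (-0.28, adjusted p = 0.665). In both, the groups overlapped. Ptpn6, which encodes the phosphatase SHP-1, was the 1 gene that met the list criteria, at 53.97 and 79.78 against 99.86 and 105.61 FPKM (0.64, SE 0.214, adjusted p = 0.326). Ptpn2, another phosphatase gene of this pathway, was at 69.22 and 58.52 against 96.71 and 80.16 FPKM (0.46, unadjusted p = 0.0379, adjusted p = 0.362) and missed them by its fold. Jak2 was at 17.93 in control library 1 and at 6.72 to 7.8 FPKM in the other 3 libraries (-0.73, adjusted p = 0.507). The kinase genes Jak1 and Tyk2 had -0.15 and 0.32, the inhibitor genes Socs1 and Cish had 0.07 each, and Pias1 and Pias3 had -0.09 and -0.00. The adaptor and phosphatase genes Grb2, Shc1 and Ptpn11 had -0.44, 0.03 and 0.29. None of these passed a call, and the median of the 15 was -0.00.

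**Figure D5:**
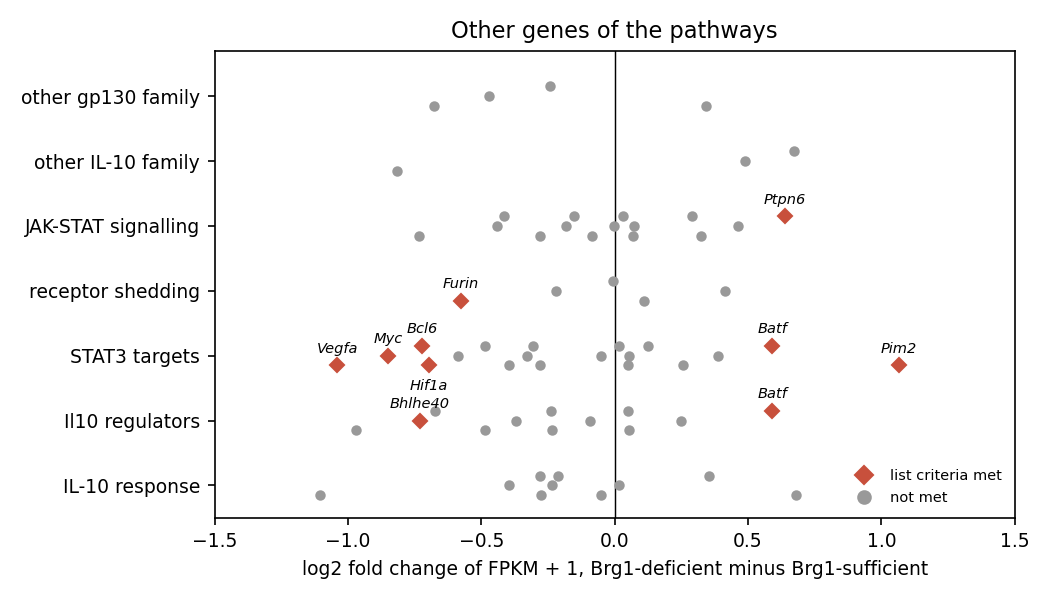
Log2 fold change of FPKM + 1 in limma (x axis, Brg1-deficient minus Brg1-sufficient, 2 libraries each) for the tested genes of 7 lists, 1 point per gene, with vertical offsets for legibility only and red diamonds for genes that met the list criteria. The 9 genes with diamonds, of 61 different genes tested, fall on both sides.

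Genes that STAT3 is known to activate in various cells are one list of possible downstream genes. Of 20 such genes 19 could be tested, and by the list criteria 2 were higher and 4 lower, beside 3.85% and 4.37% of all genes tested, with a median log2 fold change of -0.28 beside 0.03 over all genes. Pim2, a survival kinase gene, was at 87.17 and 122.99 against 214.64 and 221.39 FPKM (1.07, SE 0.195, adjusted p = 0.115 in limma). Lower were Vegfa, the angiogenic factor gene (11.97 and 6.36 against 4.25 and 3.3 FPKM, -1.04), Myc, the growth regulator (10.49 and 8.97 against 5.04 and 4.83 FPKM, -0.85), Bcl6, a transcriptional repressor gene (5.29 and 6.01 against 2.53 and 3.59 FPKM, -0.72), and Hif1a, the hypoxia factor gene (47.58 and 40.76 against 28.25 and 25.37 FPKM, -0.70). Their adjusted p from limma was 0.290, 0.171, 0.325 and 0.180. Several of these genes have many other inputs.

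Of 13 genes of factors known to act on Il10 in T cells or other lymphocytes, 12 could be tested, with a median of -0.24. By the list criteria 1 was higher and 1 lower, beside 3.85% and 4.37% of all genes tested. Batf, an AP-1 factor gene that is also in the STAT3 list, was at 91.34 and 111.85 against 155.43 and 149.98 FPKM (log2 fold change 0.59, SE 0.154, adjusted p = 0.223 in limma). Bhlhe40, a repressor of Il10, was at 1293 and 1121 against 767 and 687 FPKM (-0.73, SE 0.151, adjusted p = 0.148). Il10 itself stayed between 1 and 2.05 FPKM. Among 10 genes that IL-10 induces in macrophages, all of which could be tested, 0 met the list criteria, 1 had an unadjusted p under 0.05, and the median was -0.22. Of 5 genes for enzymes and a cofactor that cleave receptors such as the IL-6 receptor or mature such enzymes, Furin, the proprotein convertase gene, was lower at 119.97 and 153.8 against 98.41 and 83.59 FPKM (-0.58, adjusted p = 0.294 in limma). The metalloproteases Adam10 and Adam17 had 0.11 and -0.22, and the median of the 5 was -0.01. In the 7 lists together, 61 of 82 different genes could be tested. By the list criteria 3 were higher and 6 lower, beside 3.85% and 4.37% of all genes tested. At an adjusted p under 0.05 limma called 0, beside 0.305% of all genes. At an unadjusted p under 0.05 it called 13, beside 12.6%.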

How the data were processed

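RNA of sorted ILC3s was sequenced in 4 libraries, 2 per donor genotype. The authors mapped reads to GRCm38.p5 with STAR 2.5, quantified genes with RSEM 1.2 and deposited the result as FPKM. Their counts and edgeR results were not used here, so depth and counting error are unknown. The near equal distribution of the deposited FPKM is what quantile normalization gives, a step not given in the sources used here.

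The test, over genes whose mean in either group was above 1 FPKM, was limma 3.58.1 (lmFit, eBayes with trend) in R 4.3.3 on log2(FPKM + 1), without a block, with Benjamini-Hochberg adjustment over all genes tested. Intervals are 95% intervals of the fit. The fit was tested on simulated data. Positions came from the GENCODE annotation of GRCm38 and promoters from RefSeq.

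Members, gene and marker lists and motifs were chosen with earlier results of these data known. Named were all 10 members, Smarca4, tested genes of the gp130, IL-10 and JAK-STAT lists, up to 5 called genes of other lists, the 5 nearest profiles to Lif, and tested neighbours of Lif, Osm, Il10 and Il10rb. Alternatives were a pseudocount of 0.1, no filter, a mean above 5 FPKM, quantile normalization, median centring, no trend, a replicate block and leaving out each library. Some items that the naming rule covers are not reported here.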

Additional observations from a re-analysis of the deposited data

How the results depend on the processing

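At an adjusted p under 0.05 from limma, 0 of the 10 genes were called. This became 1 (Lif) with a mean FPKM above 5 as the filter, where fewer genes entered the adjustment, and 1 (Lif, adjusted p = 0.0141) with the number in the library labels as a replicate block, where 2.7% of all genes tested were called. The labels do not say that the numbers pair libraries. Deviations of libraries that share a number had a correlation of -0.000386 across all genes tested. A value over all genes cannot decide whether libraries were paired, and Lyz2, C1qa and C1qb were higher in replicate 2 of each group. By the list criteria, 2 of the 10 were called in the main fit, beside 3.85% higher and 4.37% lower of all genes tested. With no filter on low FPKM 1 was called, and fewer were called than in the main fit when any 1 library was left out. For the 7 pathway lists the count at an adjusted p under 0.05 went from 0 to 1 (Pim2) with the replicate block, and the count by the list criteria from 9 to 2 with no filter and to 14 with the block, and ran from 0 to 12 when a library was left out (0 without Brg1-deficient library 2, 1 without Brg1-deficient library 1). The cause of the shifts was not tested. Left-out libraries turned the direction of genes near 0. The log2 fold change ran from -0.34 to 0.29 for Il6, -0.42 to 0.19 for Il10, -0.058 to 0.45 for Il10rb, -0.043 to 0.69 for Tyk2, -0.37 to 0.0020 for Stat3, -0.098 to 0.23 for Socs1, -0.61 to 0.056 for Socs3, -0.14 to 0.28 for Cish, -0.39 to 0.39 for Pias3, -0.10 to 0.16 for Shc1, -0.21 to 0.022 for Ccdc157, -0.18 to 0.078 for Sf3a1, -0.13 to 0.24 for Mapkapk2, -0.18 to 0.80 for Gm37084 and -0.56 to 0.56 for Gm21970. A pseudocount of 0.1 gave 0.0025 for Pias3 and -0.029 for Gm21970. Besides Lif and Pim2, Gm25549, Meis3, Nmur1 and Soat2 passed an adjusted p under 0.05 with the replicate block, at 0.00255, 0.0219, 0.0101 and 0.0406 in limma, and Nmur1 also with a mean FPKM above 5, at 0.0325. Of the other log2 fold changes of single genes under an alternative, 563 kept direction and side of the threshold.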

Other observations

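The ratio of Lif to Osm transcripts within a library was computed after their values were seen. Lif exceeded Osm by 2.18 and 3.21 times in the Brg1-sufficient libraries and by 22.6 and 11.7 times in the Brg1-deficient libraries, and it was not tested.

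Podnl1, a gene of an extracellular leucine-rich repeat protein within 100 kb of Il27ra, was singled out after its values were seen. It was at 74.44 and 110.82 FPKM in controls, against 24.25 and 19.81 FPKM without Brg1 (log2 fold change -2.0, SE 0.235, adjusted p = 0.0609 from limma). Of 18 annotated genes within 100 kb of Il27ra, 12 could be tested and Podnl1 was the 1 that met the list criteria, while Il27ra itself was at 47.71 to 57.56 FPKM in the 4 libraries.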
